A study of Mus musculus with 6 samples.

Results

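The genes described here encode the cytochrome P450 enzymes of families 1 to 4. They were taken from the deposited table by name, as every gene called Cyp with a family number from 1 to 4, a subfamily letter and a gene number, without Cyp2e1 and without names ending in -ps. Of 83 names of this form, 15 ended in -ps and 1 was Cyp2e1, which left 67 members among 25718 genes. The pseudogene Cyp3a61-ps1 stayed in by this wording, with 1 count in 1 library.

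Cytochrome P450 enzymes are heme proteins. Most sit in the membrane of the endoplasmic reticulum of hepatocytes, where they take electrons from P450 oxidoreductase and add oxygen to their substrates. Families 1 to 3 are best known for the oxidation of drugs, toxicants and steroids, and family 4 for hydroxylation of the end carbon of fatty acids. In the liver, ligand-activated receptors control many of these genes. AhR is the classical activator of the Cyp1 genes, CAR of Cyp2b and several Cyp2c genes, PXR of Cyp3a genes and PPARα of Cyp4a genes.

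Hepatocytes, the main cell type of the liver, were taken from WT mice and from S100a16KO+/- mice that had all been fed alcohol, and their RNA was sequenced in 3 libraries of each genotype. All mice were males of 8 to 10 weeks on a C57BL/6 background. S100a16KO+/- mice carried 1 deleted allele of S100a16, a calcium-binding protein gene, made by crossing mice with floxed exons 2 and 3 to EIIa-Cre mice. EIIa-Cre acts in the early embryo, so the deletion was not limited to hepatocytes. The labels call this genotype a knockdown. Both genotypes had 5 days of control liquid diet, 10 days on liquid diet with 5% ethanol and a last oral dose of 5 g/kg ethanol, 9 h before collection. Hepatocytes were isolated by collagenase perfusion and a Percoll step, and the time between isolation and RNA extraction is not given in the sources used here. Since every library analysed came from alcohol-fed mice, each difference below is between genotypes under alcohol.

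Library totals ran from 67658095 to 71807834 estimated counts, and 1 sequenced fragment was worth about 4 of these counts. S100a16 itself was at 7.67, 8.55 and 9.08 FPKM in WT and at 3.52, 3.17 and 2.92 FPKM in S100a16KO+/- libraries. The 8 hepatocyte markers added up to between 47500 and 48689 FPKM in WT and between 47279 and 48083 FPKM in S100a16KO+/-. Of these, Ttr was lower, and Tat was higher, though not without WT replicate 2 (adjusted p = 0.0540) or WT replicate 3 (0.0652). Of the sinusoidal endothelial markers, 8 of 9 were higher in S100a16KO+/-, with sums of 45.6 to 50.7 FPKM against 66.7 to 70.7 FPKM, and the remaining marker Lyve1 was lower. Of the stellate cell markers, 5 of 9 were higher, with sums of 8.03 to 8.15 FPKM against 13.9 to 14.4 FPKM. Of the macrophage markers, 3 of 10 were higher, with sums of 72.4 to 85.3 FPKM against 88.0 to 96.0 FPKM, Cd68 among them not without S100a16KO+/- replicate 2 (adjusted p = 0.0679) or WT replicate 3 (0.0755). All 5 red cell markers were lower, with sums of 261 to 288 FPKM against 25.2 to 26.2 FPKM. Beside these counts, 11.6% of all 15957 genes tested were higher and 11.2% lower at an adjusted p under 0.05 by edgeR. Bile duct markers added up to 1.69 to 2.40 FPKM against 2.03 to 2.50 FPKM, with 1 of 4 tested lower and Krt7 and Cftr near 0. No lymphocyte or neutrophil marker passed edgeR's test or those of DESeq2 and limma with all libraries, 1 of each list had an unadjusted p under 0.05, and Ly6g was near 0. The neutrophil marker Csf3r passed without S100a16KO+/- replicate 3 (adjusted p = 0.0333) and without WT replicate 2 (0.0482). The part of these other cells in the differences below was not tested, and in bulk RNA fewer cells of a type and less RNA per cell cannot be told apart. WT replicate 1 and S100a16KO+/- replicate 2 stood apart from the rest on the second principal component, which held 12.8% of the variance, against 58.9% on the first, which separated the genotypes. Calls that changed without a library are named beside the gene.

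Of the 67 members, 57 had enough counts to be tested. The 10 others were Cyp1b1, Cyp2c65, Cyp2d34, Cyp2j8, Cyp2j13, Cyp3a16, Cyp3a41a, Cyp3a41b, Cyp3a61-ps1 and Cyp4f39. A count of 0 allows 3 fragments, or 12 counts, and 7 members were at or under that level in every library. At the limit of what was tested, Cyp2s1 had 11, 8 and 13 counts in WT and 22, 4 and 7 counts in S100a16KO+/-, and Cyp2t4 had 12, 6 and 12 counts in WT and 7, 5 and 15 counts in S100a16KO+/-. Just outside it, Cyp2d34 had 52 counts in S100a16KO+/- replicate 1 and at most 8 elsewhere, and Cyp3a41b had 49 counts in WT replicate 3 and none elsewhere. Differences in these 4 genes were not detectable at this depth.

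Cytochrome P450 transcripts of families 1 to 4 were less abundant in S100a16KO+/- hepatocytes. The 67 members added up to 10313, 10234 and 10290 FPKM in WT and to 8186, 8247 and 7941 FPKM in S100a16KO+/-, which is 79.0% of the WT mean. FPKM is a level per transcript length and library size, so that levels of different genes can be added and compared. As a share of all estimated counts, the members took 2.71% ± 0.0183 (SD, n = 3) in WT and 2.09% ± 0.0465 (SD, n = 3) in S100a16KO+/-. The sum fell by 2154 FPKM, most of it in a few abundant genes. Cyp4a14 and Cyp4a10 together fell from 3093 to 1523 FPKM, which is 72.9% of the net difference, and Cyp2c29 fell from 719.8 to 408 FPKM, which is 14.5%. Without the 6 Cyp4a genes the sum was 7037, 7057 and 7098 FPKM in WT and 6613, 6595 and 6385 FPKM in S100a16KO+/-, or 92.5% of the WT mean. The groups did not overlap in either sum.

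**Figure D1:**
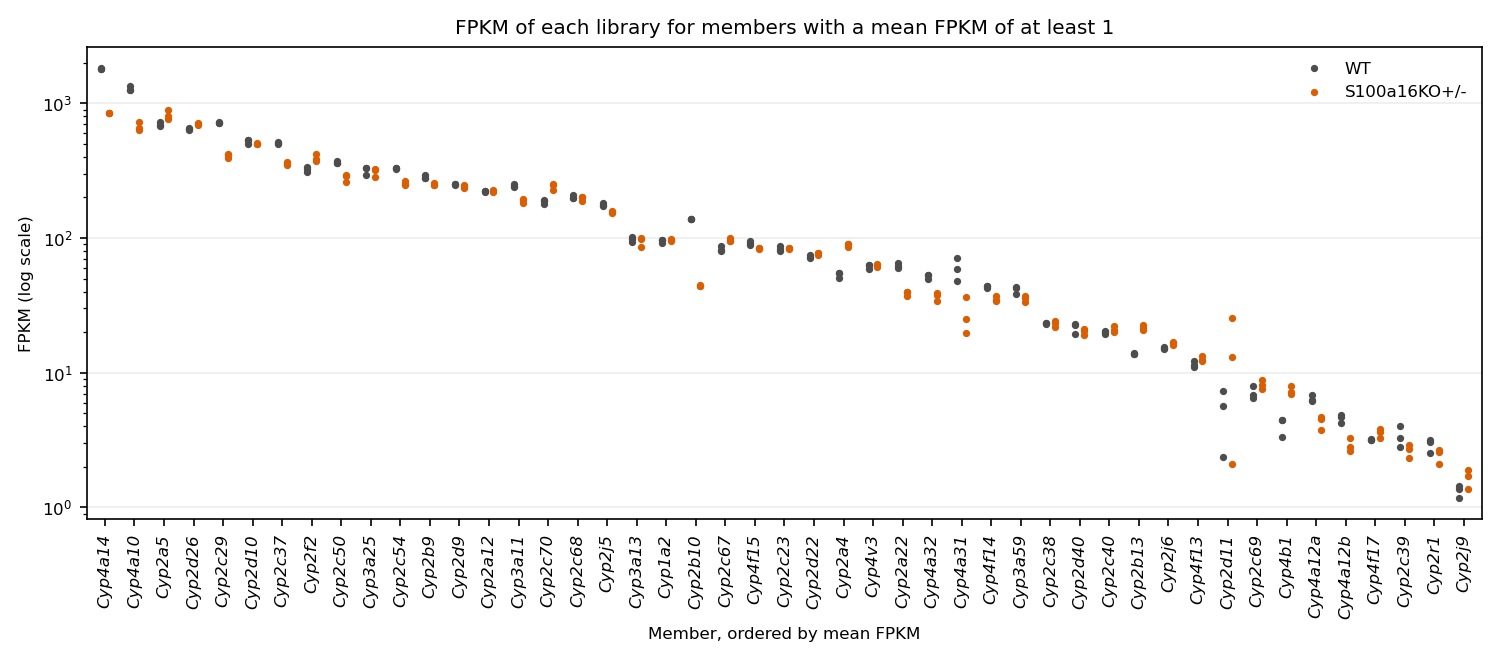
FPKM on a log scale of the 47 members with a mean of at least 1 FPKM, with 1 point per library (dark, WT; orange, S100a16KO+/-; 3 libraries each) and members ordered by mean level. Cyp4a14 stands highest, at 1793 to 1815 FPKM in WT and 848 to 853 FPKM in S100a16KO+/-, and Cyp2b10 shows the widest gap for its spread.

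Gene by gene, 16 of the 57 tested members (28.1%) were lower and 5 (8.77%) were higher in S100a16KO+/- hepatocytes at an adjusted p under 0.05 by edgeR's quasi-likelihood test. Over all 15957 genes tested, 11.2% were lower and 11.6% were higher, 22.8% in all. The FPKM values of the 2 genotypes did not overlap in 20 members that were lower and 11 that were higher, where this held for 15.8% and 18.7% of all genes, 34.5% in all. Among the 38 members with a mean of at least 10 FPKM, 14 were lower (36.8%) and 4 higher, where 25.3% of all genes at that level were lower and 20.9% higher. The median log2 fold change, S100a16KO+/- over WT, was -0.06 over the members and 0.01 over all genes tested. By the study's criterion of a 2-fold change with an unadjusted p under 0.05, 4 members were lower, Cyp2b10, Cyp4a14, Cyp4a31 and Cyp2c55, and none was higher, where 1.62% of all genes were lower, 2.9% higher and 4.52% either. No member was past that criterion on the higher side with DESeq2, limma voom or limma on FPKM either. The number on the lower side was 2 without S100a16KO+/- replicate 1, where Cyp4a31 and Cyp2c55 did not pass. Cyp4a31 also failed this criterion without WT replicate 1, WT replicate 3 or S100a16KO+/- replicate 3. Cyp2c55 also failed it without WT replicate 2 or S100a16KO+/- replicate 2. Cyp2b10 and Cyp4a14 met it whichever library was left out. The number of members higher at an adjusted p under 0.05 was 8 without S100a16KO+/- replicate 3.

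**Figure D2:**
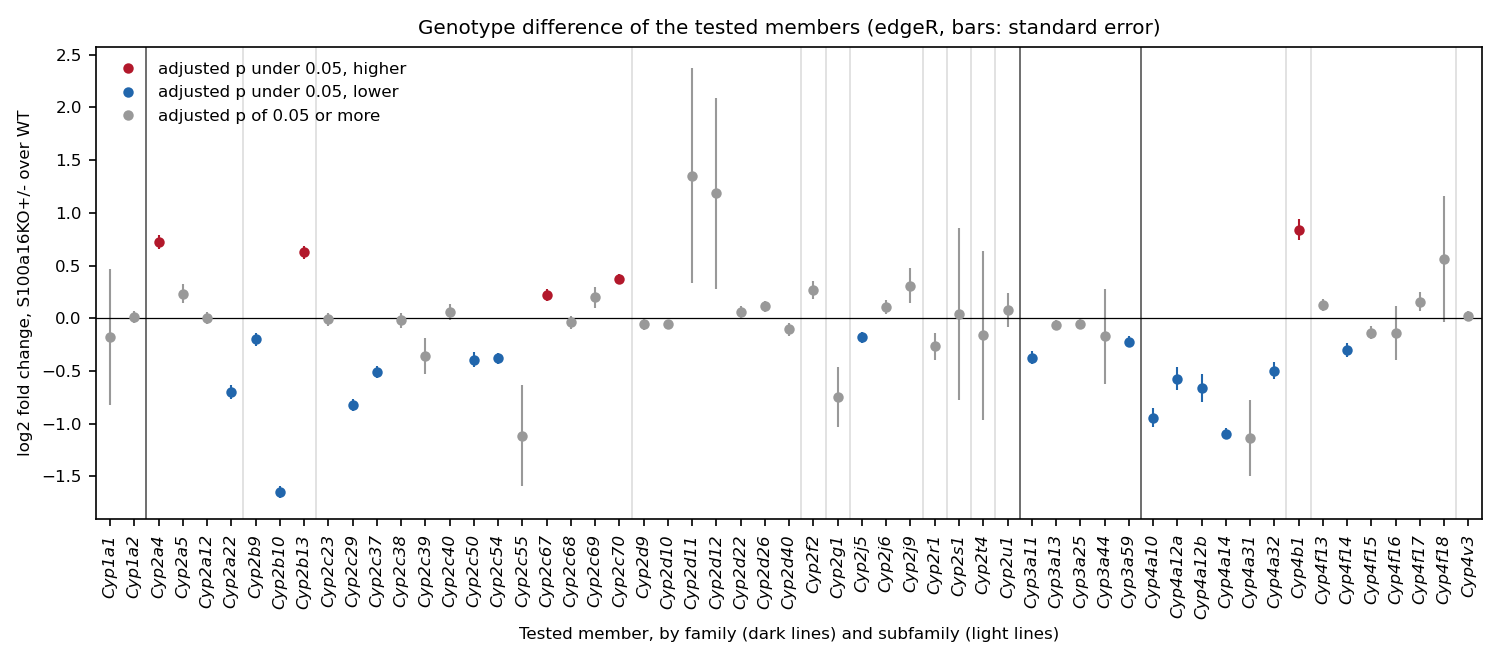
Log2 fold change (S100a16KO+/- over WT, edgeR) of the 57 tested members, ordered by family and subfamily, with bars for the standard error and colour for the adjusted p. The 16 lower members lie mostly in Cyp4a, Cyp2c and Cyp2b, the 7 tested Cyp2d genes hold none, and Cyp2d11 and Cyp2d12 have the widest bars.

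The Cyp4a genes encode ω-hydroxylases of fatty acids, and the sum over the subfamily stood at 49.6% of WT in S100a16KO+/-, with 5 of 6 genes lower at an adjusted p under 0.05. Of all genes tested, 11.2% were lower, and of those with a mean of at least 10 FPKM 25.3%. Cyp4a14 (chr4:115486200-115496142) was the most abundant member in WT, at 1793, 1804 and 1815 FPKM, and stood at 853, 848 and 848 FPKM in S100a16KO+/-. Its log2 fold change was -1.09 ± 0.05 (SE), with an adjusted p of 1.19e-09 by edgeR. Cyp4a10 (chr4:115518264-115533649) was at 1347, 1265 and 1254 FPKM in WT and at 659.9, 722 and 639 FPKM in S100a16KO+/-, a log2 fold change of -0.94 ± 0.09 (adjusted p = 6.35e-05). Both genes kept a narrow spread within each genotype and a wide gap between them. Cyp4a32, in the same run of genes, was at 53.5, 49.5 and 53.4 FPKM in WT and at 34.2, 39.0 and 38.0 FPKM in S100a16KO+/-, a log2 fold change of -0.50 (adjusted p = 0.000384). Cyp4a31 varied most among libraries, with 71.5, 47.9 and 58.8 FPKM in WT and 19.6, 36.7 and 25.2 FPKM in S100a16KO+/-. Its groups did not overlap, but its log2 fold change of -1.13 ± 0.36 had an adjusted p of 0.109 by edgeR, against 0.0115 with DESeq2 and 0.00879 with limma on log2(FPKM + 1).

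The other genes of the subfamily, Cyp4a12a and Cyp4a12b, are male-biased in mouse liver and make the enzyme that forms 20-HETE from arachidonic acid in male mice. Cyp4a12a was at 6.29, 6.79 and 6.20 FPKM in WT and at 4.56, 4.71 and 3.73 FPKM in S100a16KO+/-, a log2 fold change of -0.57 (adjusted p = 0.00195). Cyp4a12b was at 4.89, 4.24 and 4.65 FPKM in WT and at 2.63, 3.30 and 2.83 FPKM in S100a16KO+/-, a log2 fold change of -0.66 (adjusted p = 0.00197). The groups of both genes were separate, at levels far below that of Cyp4a14. Cyp4a12a and Cyp4a12b share 35.8% and 36.2% of their 100-base stretches with each other, so counts could have been split between them. Cyp4a32 shares 20.1% of its stretches with other genes, Cyp4a10 12.2%, Cyp4a31 7.33% and Cyp4a14 none.

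All 6 Cyp4a genes lie in 1 run on chromosome 4 (chr4:115299046-115647723, mm10) with Cyp4b1 at its end, and all 6 had a log2 fold change below 0. Cyp4b1, an ω-hydroxylase of short-chain fatty acids and an activator of some toxicants, went the other way. It was at 3.35, 4.49 and 4.48 FPKM in WT and at 7.22, 6.95 and 7.94 FPKM in S100a16KO+/-, a log2 fold change of 0.84 ± 0.10 (adjusted p = 2.71e-05). It lies 3122 bases from Cyp4a32. The Cyp4f genes, ω-hydroxylases of leukotrienes and long-chain fatty acids, held 1 lower gene among 6 tested. That gene, Cyp4f14, was at 42.6, 43.8 and 44.1 FPKM in WT and at 34.9, 36.9 and 34.2 FPKM in S100a16KO+/-, a log2 fold change of -0.30 (adjusted p = 0.00369). Cyp4f15, the most abundant Cyp4f gene, was at 94.7, 91.8 and 89.4 FPKM in WT and at 84.5, 83.3 and 84.8 FPKM in S100a16KO+/-, and did not pass the test (adjusted p = 0.121). Cyp4v3, another fatty acid ω-hydroxylase, was at 59.2 to 62.9 FPKM in WT and at 61.1 to 64.7 FPKM in S100a16KO+/-.

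**Figure D3:**
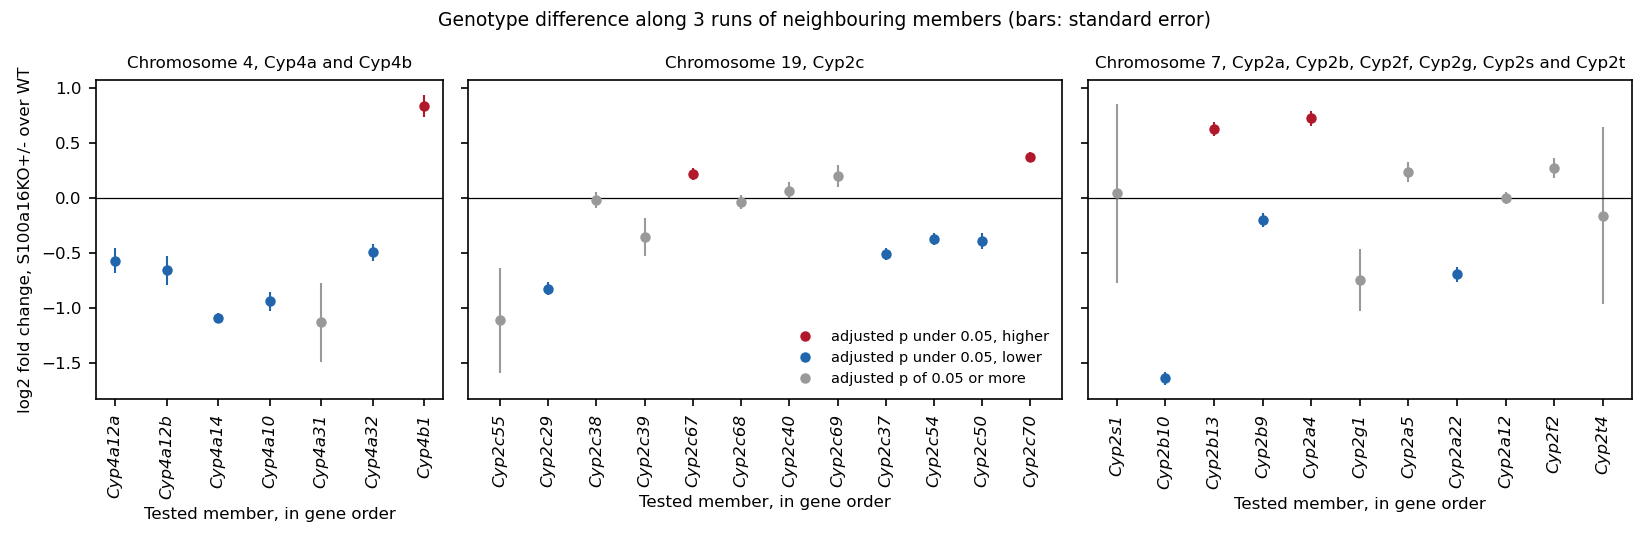
Log2 fold change (S100a16KO+/- over WT, edgeR, bars: standard error) of tested members in gene order along 3 runs of neighbouring members. Cyp4a genes lie below 0 up to Cyp4b1 at 0.84, the Cyp2c run mixes both signs, and on chromosome 7 Cyp2b10 at -1.64 is followed by Cyp2b13 at 0.62.

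The Cyp2b genes, which oxidise drugs and steroids, held the member with the lowest fitted value. Cyp2b10 (chr7:25897620-25926624), the classical target gene of CAR, was at 138, 138 and 139 FPKM in WT and at 44.2, 44.8 and 44.4 FPKM in S100a16KO+/-. Its log2 fold change was -1.64 ± 0.06 (SE), with an adjusted p of 8.22e-11. Among the 2162 tested genes with a mean of at least 10 FPKM, 16 had a lower log2 fold change. The 2 other Cyp2b genes differed from it and from each other. Cyp2b13 was at 13.8, 14.1 and 13.9 FPKM in WT and at 22.5, 20.8 and 21.5 FPKM in S100a16KO+/-, a log2 fold change of 0.62 ± 0.06 (adjusted p = 4.16e-06). Cyp2b9, the most abundant of the 3, was at 296, 280.3 and 279 FPKM in WT and at 248, 254 and 247 FPKM in S100a16KO+/-. Its log2 fold change of -0.20 had an adjusted p of 0.0370, and it did not pass without WT replicate 1 (0.177), WT replicate 3 (0.0582), S100a16KO+/- replicate 1 (0.128) or S100a16KO+/- replicate 3 (0.151).

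Cyp2b9 and Cyp2b13 lie beside each other in the run on chromosome 7 (chr7:25802475-27158668) and are nearly the same upstream of their start. In the 250 bases before the start, taken from RefSeq on GRCm38.p6, 248 were identical and 2 differed, and either gene was 75.8% identical to Cyp2b10 over the 240 aligned bases. The first 200 of these bases are shown because the 3 genes differed in their response. Capitals mark the 2 differing bases in Cyp2b9 and Cyp2b13, and in Cyp2b10 a D-site, the motif TTATGNAA that the factors DBP, TEF and HLF bind, which lies here on the other strand.
Cyp2b9, chr7:26173159-26173358, plus strand: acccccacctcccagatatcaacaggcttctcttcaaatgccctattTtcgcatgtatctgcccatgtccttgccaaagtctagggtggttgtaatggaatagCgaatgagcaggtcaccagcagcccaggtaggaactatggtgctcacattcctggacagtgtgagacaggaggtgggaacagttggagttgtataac
Cyp2b13, chr7:26061245-26061444, plus strand: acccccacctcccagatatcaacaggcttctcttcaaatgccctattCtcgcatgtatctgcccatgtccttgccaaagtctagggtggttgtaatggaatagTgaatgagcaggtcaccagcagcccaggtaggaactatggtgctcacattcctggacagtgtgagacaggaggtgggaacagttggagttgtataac
Cyp2b10, chr7:25897408-25897607, plus strand: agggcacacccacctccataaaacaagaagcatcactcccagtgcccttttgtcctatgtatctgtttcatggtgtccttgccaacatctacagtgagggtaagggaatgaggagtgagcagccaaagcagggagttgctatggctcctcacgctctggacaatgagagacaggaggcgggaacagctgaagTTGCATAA
The D-site letters were found within 250 bases upstream in 3.07% of 32851 promoters, both strands searched, and in 4 of the 53 members that had a promoter in the RefSeq table. These were Cyp2b10 and Cyp4f14, which were lower, Cyp2a4, which was higher, and Cyp2a5, which did not pass the test.

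In the Cyp2c subfamily 4 of 13 tested genes were lower and 2 higher, and the sum stood at 78.0% of WT. These enzymes oxidise drugs and steroids and form epoxides of arachidonic acid. Of all genes tested, 11.2% were lower and 11.6% higher, and at a mean of at least 10 FPKM 25.3% and 20.9%. Cyp2c29 (chr19:39269405-39330699), the most abundant Cyp2c gene and an epoxygenase, was at 714, 715 and 731 FPKM in WT and at 417, 415 and 390.3 FPKM in S100a16KO+/-, a log2 fold change of -0.83 ± 0.06 (adjusted p = 1.12e-07). Cyp2c37 was at 509, 500.0 and 520.1 FPKM in WT and at 367, 363 and 347 FPKM in S100a16KO+/-, a log2 fold change of -0.51 (adjusted p = 1.52e-05). The groups of both genes were far apart for their spread. Cyp2c50 was at 374, 363 and 363 FPKM in WT and at 286, 293 and 262 FPKM in S100a16KO+/-, a log2 fold change of -0.39 (adjusted p = 0.00131). Cyp2c54 was at 328, 326 and 331 FPKM in WT and at 264, 249 and 249.9 FPKM in S100a16KO+/-, a log2 fold change of -0.38 (adjusted p = 0.000114). These 4 genes are all listed as CAR targets and as genes of hepatocytes near the central vein.

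Cyp2c70 makes muricholic acids from chenodeoxycholic acid in mouse liver. It was at 179, 188 and 190.4 FPKM in WT and at 249.8, 227 and 248 FPKM in S100a16KO+/-, a log2 fold change of 0.37 ± 0.05 (adjusted p = 3.17e-05). Cyp2c67 was at 80.0, 81.3 and 87.7 FPKM in WT and at 101, 94.8 and 95.6 FPKM in S100a16KO+/-, a log2 fold change of 0.22 (adjusted p = 0.0114). The Cyp2c67 call was not made without WT replicate 2 (adjusted p = 0.0743) or without S100a16KO+/- replicate 1 (0.0559), and 23.7% of its 100-base stretches occur in other genes, mainly Cyp2c69. Cyp2c55 was low, with 37, 74 and 35 counts in WT and 17, 17 and 33 counts in S100a16KO+/-, and its log2 fold change of -1.11 ± 0.48 did not pass (adjusted p = 0.117). Cyp2c23, an epoxygenase outside the run and also known as Cyp2c44, was at 80.4 to 87.8 FPKM in WT and at 82.6 to 84.9 FPKM in S100a16KO+/-.

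The Cyp2c run spans chr19:39007019-40187333 and held both directions. Upstream of the start, 1 short word was shared unevenly among its genes. The 9 letters CAAAGTCCA, a core that HNF4α binds, lay within 250 bases before the start in 0.384% of all promoters on either strand, and in 5 tested Cyp2c genes, Cyp2c40, Cyp2c67, Cyp2c68, Cyp2c69 and Cyp2c70. Of these 5, 2 were higher, none was lower and 3 did not pass. The word also lay in Cyp3a11, which was lower, and in Cyp2c65, Cyp3a16, Cyp3a41a and Cyp3a41b, which were not tested. Of the 6 tested Cyp2c genes whose promoter lacked these letters, 3 were lower, none was higher and 3 did not pass. Cyp2c54, which was lower, and Cyp2c23, which did not pass, had no promoter in the RefSeq table and are in neither count. A word that differs in 1 base, CAAAGTCTA, lay in 0.225% of promoters and in Cyp2c29, Cyp2c37 and Cyp2c39, as well as in Cyp2b9 and Cyp2b13. Bases -200 to -51 from the start are shown for 6 genes whose responses differed, with capitals for the 2 words. Cyp2c50 holds neither word.
Cyp2c67, chr19:39649093-39649242, minus strand: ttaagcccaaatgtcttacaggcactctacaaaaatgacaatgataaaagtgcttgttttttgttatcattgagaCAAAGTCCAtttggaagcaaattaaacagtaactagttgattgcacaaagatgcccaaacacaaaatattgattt
Cyp2c68, chr19:39741152-39741301, minus strand: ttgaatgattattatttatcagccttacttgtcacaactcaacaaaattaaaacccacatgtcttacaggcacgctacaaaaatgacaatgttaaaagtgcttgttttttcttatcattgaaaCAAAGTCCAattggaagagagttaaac
Cyp2c70, chr19:40187337-40187486, minus strand: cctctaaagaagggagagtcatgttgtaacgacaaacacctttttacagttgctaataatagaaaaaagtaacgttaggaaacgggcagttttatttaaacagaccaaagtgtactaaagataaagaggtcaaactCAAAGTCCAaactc
Cyp2c29, chr19:39286885-39287034, plus strand: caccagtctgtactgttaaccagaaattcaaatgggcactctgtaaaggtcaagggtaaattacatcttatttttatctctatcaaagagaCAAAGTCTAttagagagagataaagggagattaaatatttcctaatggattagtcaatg
Cyp2c37, chr19:39992224-39992373, plus strand: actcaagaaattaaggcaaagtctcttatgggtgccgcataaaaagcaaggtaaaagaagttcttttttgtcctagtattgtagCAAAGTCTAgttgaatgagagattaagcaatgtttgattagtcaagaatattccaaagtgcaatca
Cyp2c50, chr19:40089479-40089628, plus strand: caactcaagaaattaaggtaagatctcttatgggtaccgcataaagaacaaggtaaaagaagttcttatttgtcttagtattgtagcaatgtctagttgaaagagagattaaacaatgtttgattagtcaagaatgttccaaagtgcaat
Some Cyp2c genes were alike beyond the words. Cyp2c67 and Cyp2c68 were 93.1% identical over 202 aligned upstream bases and Cyp2c37 and Cyp2c50 87.8% over 245, whereas Cyp2c67 and Cyp2c70 were 65.4% identical over 208. Cyp2c40 was 98.6% identical to Cyp2c69 over 220 bases and 95.4% to Cyp2c68 over 217. Cyp2c40, Cyp2c67, Cyp2c68 and Cyp2c69 are therefore not separate cases of a gene with CAAAGTCCA. The table's Cyp2c29 reaches upstream of the RefSeq start and overlaps the pseudogene Cyp2c53-ps on the same strand, with which it shares 2.24% of its 100-base stretches. HNF4α itself, encoded by Hnf4a, was at 47.3 to 48.4 FPKM in WT and at 48.3 to 50.0 FPKM in S100a16KO+/-.

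The Cyp2a genes, which hydroxylate steroids and coumarin, were split. Cyp2a4, a testosterone 15α-hydroxylase that is female-biased in mouse liver, was at 54.9, 55.3 and 50.7 FPKM in WT and at 90.7, 90.7 and 86.0 FPKM in S100a16KO+/-, a log2 fold change of 0.73 ± 0.07 (adjusted p = 2.56e-06). Cyp2a22 was at 65.3, 62.2 and 59.9 FPKM in WT and at 37.0, 39.5 and 39.8 FPKM in S100a16KO+/-, a log2 fold change of -0.70 ± 0.07 (adjusted p = 4.76e-06). Their levels in WT were close and their levels in S100a16KO+/- were far apart. Cyp2a5, the coumarin 7-hydroxylase and the third most abundant member, was at 721, 684 and 691 FPKM in WT and at 811, 895 and 770.3 FPKM in S100a16KO+/-. Its groups did not overlap, but its log2 fold change of 0.23 ± 0.09 did not pass (adjusted p = 0.108). It passed without WT replicate 1 (0.0386) and without S100a16KO+/- replicate 3 (0.0187), and with DESeq2 (0.0192). Cyp2a4 and Cyp2a5 share 98.4% of 249 aligned upstream bases and 11.2% of the 100-base stretches of Cyp2a4 occur in Cyp2a5. Cyp2a12 had overlapping groups, at 219.8 to 225 FPKM in WT and at 220.2 to 227 FPKM in S100a16KO+/-.

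Cyp2f2, which oxidises naphthalene and marks hepatocytes near the portal vein, lies in the same run. It was at 339, 324 and 308 FPKM in WT and at 386, 420.2 and 371 FPKM in S100a16KO+/-, a log2 fold change of 0.27 ± 0.09 with an adjusted p of 0.0505. It passed without WT replicate 1 (0.00985) and without S100a16KO+/- replicate 3 (0.0149), and with DESeq2 (0.00494). Of the 7 members listed as genes of the central vein region, 5 were lower, none was higher and 2 did not pass, Cyp1a2 and Cyp2a5. The sum over the 7 stood at 81.4% of WT. Among all tested genes with a mean of at least 10 FPKM, 25.3% were lower and 20.9% higher.

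The Cyp2d genes, which oxidise many basic drugs, held none that passed edgeR's test among 7 tested, and none with DESeq2 or limma, with 1 at an unadjusted p under 0.05, Cyp2d26. With upper-quartile scaling Cyp2d26 passed edgeR's test, at a log2 fold change of 0.15 (adjusted p = 0.0445). Cyp2d26, the most abundant of them, was at 636, 658 and 644 FPKM in WT and at 711, 700.0 and 693 FPKM in S100a16KO+/-, a log2 fold change of 0.11 ± 0.05 (adjusted p = 0.126). The sum over the subfamily was 1485 to 1542 FPKM in WT and 1544 to 1580 FPKM in S100a16KO+/-. Cyp2d11 had the highest log2 fold change of all members, 1.35, but with a standard error of 1.02 (adjusted p = 0.457). Its levels were 7.37, 2.37 and 5.66 FPKM in WT and 25.6, 2.12 and 13.1 FPKM in S100a16KO+/-, so that the groups overlapped. The value of Cyp2d12 rested on 1 library, S100a16KO+/- replicate 2, at 2.40 FPKM, where all others were at 0.340 to 0.611 FPKM. Of the 100-base stretches of Cyp2d11, 11.1% are shared with Cyp2d10, which stood at 497 to 532 FPKM.

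In the Cyp3a subfamily, which clears a wide range of drugs and steroids, 2 of 5 tested genes were lower and the other 3 did not pass. Of all genes tested, 11.2% were lower, and of those with a mean of at least 10 FPKM 25.3%. Cyp3a11, the classical PXR target, was at 243, 241 and 249.8 FPKM in WT and at 196, 192 and 181 FPKM in S100a16KO+/-, a log2 fold change of -0.37 ± 0.06 (adjusted p = 0.000270). Cyp3a59 was at 38.1, 42.5 and 43.2 FPKM in WT and at 36.0, 33.7 and 36.9 FPKM in S100a16KO+/-, a log2 fold change of -0.22 (adjusted p = 0.00668), and did not pass with limma on log2(FPKM + 1) (0.0642). Cyp3a25, the most abundant Cyp3a gene, was at 295, 333 and 331 FPKM in WT and at 324, 284 and 321 FPKM in S100a16KO+/-, with overlapping groups, and Cyp3a13 overlapped too. Cyp2j5, an epoxygenase, was at 176, 174 and 181 FPKM in WT and at 159, 154 and 157 FPKM in S100a16KO+/-. Its log2 fold change of -0.18 had an adjusted p of 0.0224, which rose to 0.101 without WT replicate 1, 0.0836 without WT replicate 3, 0.0728 without S100a16KO+/- replicate 1 and 0.0933 without S100a16KO+/- replicate 3. Cyp2j5 was the remaining lower member and was named after its values were seen.

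In family 1 no member passed the test. Cyp1a2, which oxidises caffeine and aromatic amines, was at 91.9, 97.1 and 96.1 FPKM in WT and at 96.2, 97.6 and 94.6 FPKM in S100a16KO+/-, a log2 fold change of 0.01 ± 0.06 (adjusted p = 0.914). Cyp1a1, which oxidises polycyclic aromatic hydrocarbons, had 8, 28 and 28 counts in WT and 28, 14 and 14 counts in S100a16KO+/-, so that a difference was not detectable at this depth. Neither gene had an unadjusted p under 0.05 by edgeR, and neither passed with DESeq2 or limma.

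Read by the receptor known to control them, the members differed in how many passed the test. All 4 listed PPARα targets, Cyp4a10, Cyp4a14, Cyp4a31 and Cyp4a32, were below WT, 3 of them past the test, and their sum stood at 49.5% of WT. Of the 8 CAR targets 6 were lower and 1 higher, and their sum stood at 68.5% of WT. Of the 3 PXR targets 1 was lower, and of the 2 tested AhR targets none passed. The libraries were all male by their genes, with Xist at 0.00604 to 0.0232 FPKM and the Y-linked Ddx3y at 6.58 to 9.57 FPKM. In these male cells levels varied widely within both sex-biased lists. Of the female-biased members, Cyp2b9 stood at 247 to 296 FPKM and Cyp3a44 at 0.155 to 0.363 FPKM. Of the male-biased members, Cyp2d9 stood at 236 to 254 FPKM and Cyp4a12a at 3.73 to 6.79 FPKM. Of the 8 tested female-biased members 2 were higher and 1 lower, and of the 4 male-biased members 2 were lower and none was higher. Beside these lists, 11.2% of all genes tested were lower and 11.6% higher. At a mean of at least 10 FPKM the shares were 25.3% and 20.9%. The sex-biased lists are too small to be set apart from these shares. Among 5 epoxygenases 2 were lower, Cyp2c29 and Cyp2j5. The mean sum of the 5 went from 997 to 667 FPKM, 66.8% of WT, most of it in Cyp2c29, which went from 719.8 to 408 FPKM. Cyp2c23, at means of 83.8 and 83.7 FPKM, did not pass. Neither did Cyp2j6 and Cyp2j9, whose means were above WT.

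Genes that work with or control P450 enzymes were counted from a list of 63, of which 62 were tested. In S100a16KO+/- hepatocytes 30 were lower and 10 higher, with a median log2 fold change of -0.18, where 11.2% of all genes tested were lower and 11.6% higher. Of these 40 calls, 10 were lost in at least 1 of the 6 analyses that left out a library, with adjusted p from 0.0502 to 0.165. Among the 10 were Alas1, Cyb5a, Dbp, Foxa1, Pgrmc1, Plin2, Rxra, Stat5b and Tiparp. The values of the companion genes are on the same scales as those of the members.

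Among the electron donors, the oxidoreductase Por was at 219.7, 234 and 225 FPKM in WT and at 209, 209 and 197 FPKM in S100a16KO+/-. Its groups did not overlap, but Por did not pass edgeR's test (adjusted p = 0.0678), although it did without S100a16KO+/- replicate 2 (0.00716). With DESeq2 and with limma voom Por passed as lower. Cyb5b and Cyb5a, which encode forms of cytochrome b5, were lower, with log2 fold changes of -0.59 and -0.20, and the b5 reductase gene Cyb5r3 was higher, at 0.27. In heme synthesis Alas1, the rate-limiting enzyme, was higher by 0.17 on the log2 scale, Alad was at -0.39, Cpox at -0.73 and the other 5 genes did not pass. No gene of heme breakdown passed edgeR's test or those of DESeq2 and limma, with 2 at an unadjusted p under 0.05. Blvrb passed without S100a16KO+/- replicate 2, at a log2 fold change of -0.20 (adjusted p = 0.0238).

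Among the receptors and factors, 13 of 23 tested were lower and 4 higher. Nr1i3, which encodes CAR, was at 82.2, 93.8 and 84.6 FPKM in WT and at 75.6, 70.5 and 88.0 FPKM in S100a16KO+/-, with overlapping groups (adjusted p = 0.0621, and 0.0146 without S100a16KO+/- replicate 3). Ppara was at 9.75, 12.6 and 10.9 FPKM in WT and at 10.4, 8.89 and 10.5 FPKM in S100a16KO+/-, with overlapping groups as well. It did not pass edgeR's test (adjusted p = 0.124, unadjusted p = 0.0387). In counts scaled as for that test, its groups did not overlap and S100a16KO+/- was lower. Whether the levels of Nr1i3 and Ppara bear on Cyp2b10 and Cyp4a14 was not tested. Nr1i2, which encodes PXR, was lower at -0.34 (adjusted p = 0.000599), and Ahr at -0.75 (adjusted p = 2.08e-06). Further lower factors were Nr1h4 at -0.62, which encodes the bile acid receptor FXR, Nr0b2 at -0.94, which encodes the corepressor SHP, Cebpa at -0.70, Foxa2 at -0.88, Hlf at -0.67 and Nfe2l2 at -0.53. Bcl6, a repressor of female-biased genes in male liver, was at -1.03, and Cux2, which is female-biased in liver, was at 0.34.

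Other targets of PPARα moved in both directions, with 8 of 12 lower and 3 higher. Fgf21, which encodes a secreted hormone of the liver, was at 106, 94.7 and 96.5 FPKM in WT and at 7.21, 8.03 and 6.27 FPKM in S100a16KO+/-, a log2 fold change of -3.80 ± 0.13 (adjusted p = 9.01e-08). Acot1, an acyl-CoA thioesterase, was at 7.77, 8.09 and 8.75 FPKM in WT and at 2.39, 1.97 and 2.13 FPKM in S100a16KO+/-, a log2 fold change of -1.93 (adjusted p = 7.09e-10). Ehhadh of peroxisomal β-oxidation was lower at -0.90. Higher genes were Pdk4 at 0.89, Cpt1a at 0.44 and Angptl4 at 0.39. Of the other CAR and PXR targets, Aldh1a1 and Aldh1a7 were lower at -0.66 and -0.44, Gsta1 was higher at 0.56 and 4 did not pass. Of the other AhR targets Nqo1 and Tiparp were lower, at -0.44 and -0.40.

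**Figure D4:**
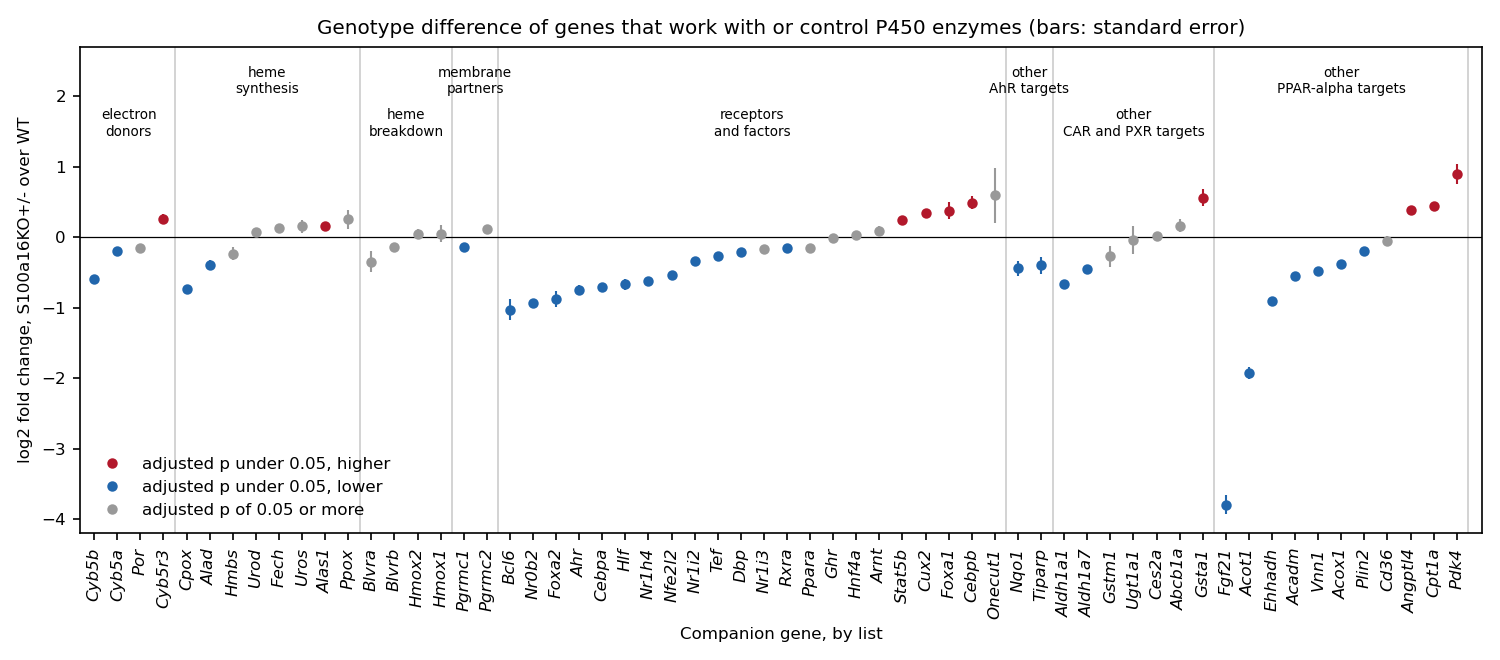
Log2 fold change (S100a16KO+/- over WT, edgeR, bars: standard error) of 60 of the 62 tested genes that work with or control P450 enzymes, grouped by list and ordered by value within each. Fgf21 at -3.80 and Acot1 at -1.93 lie lowest, and Pdk4 at 0.89 highest.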

How the data were processed

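RNA-seq of primary hepatocytes from 3 WT and 3 S100a16KO+/- alcohol-fed male mice was used. The authors deposited 1 table with an estimated count and an FPKM value per gene and library. The submitters' processing notes name cutadapt 1.9, HISAT2 2.0.4, UMI-tools, StringTie 1.3.4d, DESeq2 and edgeR, and the mm10 build. Their order, settings and annotation are not given in the sources used here. Per the labels, libraries were poly(A)-selected and strand-specific with molecular identifiers. The deposited estimated counts are whole numbers, not scaled for library size, in steps of about 4 per fragment, so that a count of 0 allows up to 12, which covers counting error only. The deposited FPKM values are scaled by the authors for transcript length and library size.

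Counts were tested with edgeR 4.0.16 in R 4.3.3 (TMM, filterByExpr, robust quasi-likelihood F test, two-sided, no covariate), with Benjamini-Hochberg adjustment over 15957 genes. Labels do not say that libraries came from separate mice, so p-values measure the spread between these libraries. The test was checked on simulated counts with the same dispersion for every gene and without steps of about 4. That check does not cover the gene-by-gene spread of these data.

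The members and lists were chosen with earlier results of these data known. Values per library are given for the 20 called, non-overlapping members with a mean of at least 1 FPKM and the largest changes, the 5 most abundant members, textbook receptor targets and members at the limit of testing. Others named are group examples. Of the companion genes, 2 are counted in their lists but not reported here by name or in the plot. Alternatives were RLE, upper-quartile and library-size scaling, other filters, DESeq2 1.42.0, limma 3.58.1 (voom, log2(FPKM + 1), log2(FPKM + 0.1)), counts divided by 4, a replicate block, leaving out each library and other thresholds. Leaving out WT replicate 1 and S100a16KO+/- replicate 2 together was chosen after seeing the data. Promoters are RefSeq's on GRCm38.p6, found for 53 of 67 members. Shared stretches were counted in GENCODE M21 transcripts, in which 63 of 67 members had the table's start and end. Motifs searched on both strands, with the share of 32851 promoters holding each, were CAAAGTCCA (0.384%), CAAAGTCTA (0.225%), TTATGNAA (3.07%), GCGTG (28.2%), TTCNNNGAA (7.02%), TATAAA (12.4%) and the nuclear receptor repeats DR1 (0.338%) and DR4 (0.213%). They can overlap each other.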

Additional observations from a re-analysis of the deposited data

How the results depend on the processing

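Of the 21 members called at an adjusted p under 0.05, 13 lower and 4 higher ones were called in every alternative fit, and none of the 21 changed direction in any of them. The other 4 were Cyp2b9, Cyp2j5, Cyp2c67 and Cyp3a59. The members called lower numbered 14 to 17 and those called higher 4 to 8 over all alternatives. With 1 library left out the ranges were 14 to 17 and 4 to 8, 2 to 5 for members past 2-fold lower and 0 to 1 for members past 2-fold higher. Without WT replicate 1 and S100a16KO+/- replicate 2 there were 17 lower and 7 higher members. Members past 2-fold higher numbered 2 with no filter on low counts, Cyp2j8 and Cyp3a16, and 3 at a fold change of at least 1.5, where those lower numbered 9. Same-numbered libraries did not deviate together (correlations of -0.0472, -0.0237 and 0.0518, and not every library correlated best with its own number). With 3 libraries of each genotype this cannot exclude a shared day or batch, which the sample labels do not name. With the replicate block 2 members were past 2-fold lower, Cyp2b10 and Cyp4a14, and 14 members were called lower and 6 higher. The number of genes called fell from 3643 to 2188 with limma on log2(FPKM + 1), to 2167 on log2(FPKM + 0.1), to 2229 at an adjusted p under 0.01 and to 3082 with the replicate block. Both limma fits on FPKM tested only genes with a mean of at least 1 FPKM, so their counts come from a different set of genes. The ratio of the members' share in S100a16KO+/- to that in WT was 0.772 of counts and 0.804 of summed FPKM. Upper-quartile scaling moved the median log2 fold change of all genes by 0.0367 and gave 2126 higher and 1485 lower genes, against 1853 and 1790. The causes of these changes were not tested. Depth limits the 10 members that were not tested and the 19 tested ones with a mean under 10 FPKM, whose median standard error was 0.26 on the log2 scale against 0.06 at higher levels.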
